A study of Mus musculus with 4 samples.

Results

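The genes described here are 9 that write, remove or read DNA methylation: the DNA methyltransferases Dnmt1, Dnmt3a and Dnmt3b, the TET dioxygenases Tet1, Tet2 and Tet3, and the readers Uhrf1, Mbd1 and Mbd2. They were taken by gene symbol from a deposited table of 23275 entries, each symbol matched 1 entry, and all 9 were among the 12683 entries that the authors tested. Polyadenylated RNA had been sequenced from B220+CD43+ B cells, an early B-lineage phenotype, sorted from the bone marrow of C57BL/6 mice at 8 weeks of age. Of the 4 libraries, 2 came from Hdac3+/+Mb1cre+/- mice, called wild-type here, and 2 from Hdac3F/-Mb1cre+/- mice, called Hdac3-deleted, with cells of 2 mice pooled in each library. All mice carried the Mb1-cre recombinase, which is active from early B-cell stages, so a sorted cell that does not express it keeps its conditional allele. In the Hdac3-deleted group such a cell still carries 1 null allele.

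In mammals a methyl group is placed on cytosine, mostly where a guanine follows. DNMT3A and DNMT3B set new marks, while DNMT1 copies marks to the new strand after replication, brought there by UHRF1, which recognises half-methylated DNA. TET enzymes oxidise methylcytosine, which leads to its loss, and MBD proteins bind methylated DNA and recruit corepressors, some of which contain histone deacetylases. Hdac3 encodes the histone deacetylase of the NCoR and SMRT corepressor complexes. In B-cell development, TET2 and TET3 are known for demethylating immunoglobulin light chain enhancers.

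None of the 9 genes passed the authors' Cuffdiff test for a difference between genotypes at a deposited q-value under 0.05. The test called 6.95% of all tested entries, 2.81% as higher and 4.14% as lower in Hdac3-deleted cells. At an unadjusted deposited p-value under 0.05 the count among the 9 was again 0, against 17.1% of all tested entries, and the smallest p among them was 0.0815, for Uhrf1. When the p-value was taken instead from the test statistic as a normal deviate, 0 of the 9 were called as well. The values themselves lay above the wild-type value for 7 genes and below it for Uhrf1 and Dnmt1. The median log2 fold change of the 9 was 0.10, beside 0.03 for all tested genes. Against a background of this size, 0 of 9 is no result about these genes as a group.

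Levels are in FPKM, the number of fragments for each kilobase of transcript relative to library size. Length is divided out, so genes can be set side by side. Ratios between genes are approximate, since the annotation that sets each length is not given. The authors combined the 2 libraries of a genotype into 1 value, so each gene has 1 level per genotype and no spread between libraries can be given. The precision of a fold change is given below as the standard error implied by the authors' test statistic, the log2 fold change divided by that statistic, and as a 95% interval from it under a normal approximation. Both describe the authors' model. The intervals are wider than the deposited p-values alone would give, since the normal p for Uhrf1 was 0.237 against the deposited 0.0815. Every library was a bulk sample, in which fewer cells of a type and less RNA per cell cannot be told apart. The depth of the libraries is unknown.

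Hdac3 itself was 46.8 FPKM in wild-type cells against 22.03 FPKM in Hdac3-deleted cells, or 47.1% of normal (q = 0.0016 in the authors' deposited table). The value is for the gene as a whole, so exons inside and outside any deleted part cannot be told apart. B-lineage markers were abundant in both genotypes, led by Igll1 at 509 and 834 FPKM and Cd79b at 359 and 472 FPKM. All 10 had values above wild-type, and 4 were called higher at a deposited q-value under 0.05, beside 2.81% of all tested entries. The 10 include Ptprc and Spn, the genes of the sort antigens B220 and CD43, which are not restricted to B cells. Neither was called. Markers of other cells were present too. The 10 neutrophil markers, led by S100a8 and S100a9, summed to 1.85% of all FPKM among wild-type cells, against 0.47% among Hdac3-deleted ones. All 10 had values below wild-type, and 9 were called lower, beside 4.14% of all tested entries. The 8 genes listed as plasmacytoid dendritic cell markers, led by Irf8 and Bst2, summed to 0.38% and 0.518%. Irf8, Bst2 and Tcf4 of this list are not restricted to those cells and can be expressed by B-lineage cells. The sum is therefore not a share of plasmacytoid dendritic cells. All 8 had values above wild-type, and 1 was called higher. The 7 T and NK cell markers with an entry, led by Nkg7 and Ncr1, summed to 0.057% and 0.0614% with none called, and the 4 tested erythroid markers, led by Tfrc and Car1, to 0.0253% and 0.0217% with none called. The 5 basophil and mast cell markers, led by Mcpt8 and Prss34, all had values below wild-type, and 2 were called lower. All 5 were under 10 FPKM. Which cells of the gate made the transcripts of the 9 genes was not tested.

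The 9 genes spanned a wide range of levels, and their order was nearly the same in both genotypes. Uhrf1 was highest, at 172 FPKM in wild-type cells against 133 FPKM in Hdac3-deleted cells, above 95.7% of all tested genes by its mean. Mbd2 and Dnmt1 followed, near 100 FPKM, and their wild-type levels of 98.7 and 97.8 FPKM were in a ratio of 1.01. Mbd1 stood between these and the lower genes. Dnmt3a and Tet3 lay between 11.1 and 14.0 FPKM, Tet2 and Dnmt3b between 4.83 and 6.07 FPKM, and Tet1 was lowest, at 2.34 and 2.70 FPKM. The only changes of order were exchanges between neighbours, Dnmt3a with Tet3 and Tet2 with Dnmt3b, and with no spread between libraries neither exchange can be set against an error. Both maintenance genes were more abundant than each TET transcript. The ratio was smallest for Dnmt1 over Tet3, at 8.78 in wild-type cells against 6.08 in Hdac3-deleted ones, and largest for Uhrf1 over Tet1, at 73.7 and 49.2.

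**Figure D1:**
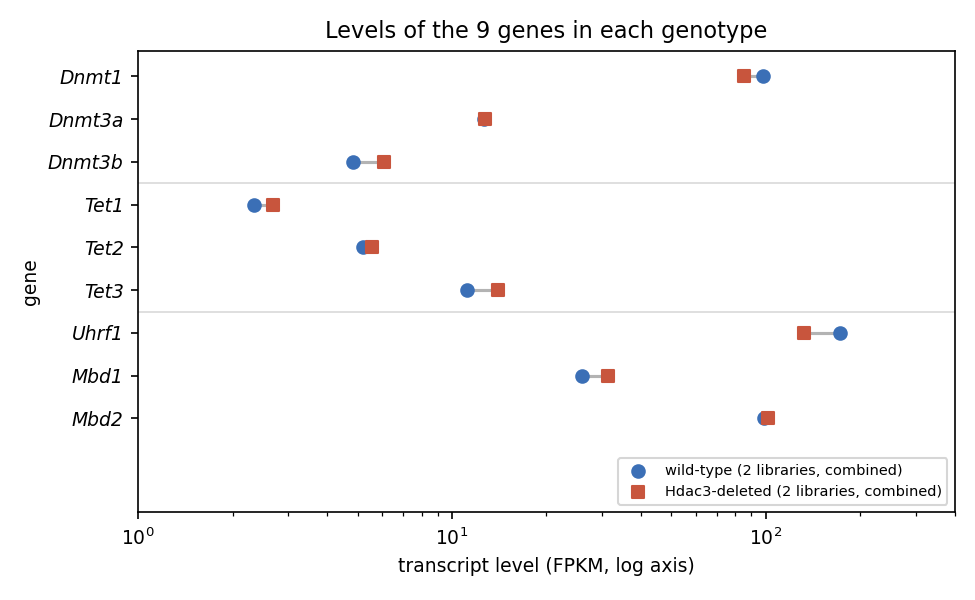
Level of each of the 9 genes in FPKM, on a log axis, with 1 point per genotype that combines 2 libraries (circle, wild-type; square, Hdac3-deleted) and a line joining the 2. Dnmt1 and Uhrf1 have the square to the left of the circle, for Dnmt3a the points coincide, and no gene moves far along the axis.

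Dnmt1, the maintenance methyltransferase, on chromosome 9 (mm10, positions 20907206 to 20959888), was 97.8 FPKM in wild-type cells against 85.1 FPKM in Hdac3-deleted cells. This was 87.0% of the wild-type value, a log2 fold change of -0.20 with an implied standard error of 0.33 and an interval from -0.85 to 0.45 (q = 0.748 in the authors' deposited table). Uhrf1, its partner at replicated DNA, on chromosome 17 from 56303337 to 56323486, was 172 FPKM in wild-type cells against 133 FPKM in Hdac3-deleted cells. This was the largest difference among the 9 genes, with 77.1% of the wild-type level, a log2 fold change of -0.37, an implied standard error of 0.32 and an interval from -0.995 to 0.25 (q = 0.378). Both maintenance genes were thus lower in Hdac3-deleted cells in value, neither past the test, and the ratio of Uhrf1 to Dnmt1 was 1.76 and 1.56. Among all tested genes, 13.4% had a lower log2 fold change than Uhrf1 and 24.2% a lower one than Dnmt1.

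Dnmt3a, a de novo methyltransferase, on chromosome 12 from 3806980 to 3914443, was 12.6 FPKM in wild-type cells against 12.8 FPKM in Hdac3-deleted cells. Its log2 fold change of 0.01, with an interval from -0.54 to 0.57 (q = 0.99), was the smallest of the 9. Its locus is shared with the entry Gm10485, listed at 0.0562 and 0.0168 FPKM and not tested, and its exons overlap the antisense gene Dnmt3aos in the GENCODE M21 annotation. The sources used here do not say whether counting used strand, so reads of an antisense partner cannot be told apart. Dnmt3b, the other de novo enzyme, on chromosome 2 from 153649454 to 153687730, was 4.83 FPKM in wild-type cells against 6.07 FPKM in Hdac3-deleted cells, a log2 fold change of 0.33 with an interval from -0.28 to 0.94 (q = 0.457). Of the summed FPKM of the 3 methyltransferases, Dnmt1 made up 84.8% in wild-type cells against 81.9% in Hdac3-deleted cells, Dnmt3a 10.96% and 12.3%, and Dnmt3b 4.19% and 5.84%. Within the de novo pair, Dnmt3a was 2.62 times Dnmt3b in wild-type and 2.102 times in Hdac3-deleted cells. Each gene has 1 value per genotype, and isoforms were not measured apart. The annotation behind the values is not given, so which isoforms they cover is not known.

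All 3 TET genes had a higher value in Hdac3-deleted cells, and none passed the test. Tet3, on chromosome 6 from 83362374 to 83441678, was the most abundant, at 11.1 FPKM in wild-type cells against 14.0 FPKM in Hdac3-deleted cells. Its value was 1.26 times the wild-type one, a log2 fold change of 0.33 with an interval from -0.24 to 0.90 (q = 0.395 in the authors' deposited table). Tet2, on chromosome 3 from 133463677 to 133544390, was 5.19 FPKM in wild-type cells against 5.55 FPKM in Hdac3-deleted cells, with a log2 fold change of 0.10 and an interval from -0.45 to 0.64 (q = 0.899). An exon of Tet2 overlaps the antisense gene Gm42567 in the annotation. Tet1, on chromosome 10 from 62804570 to 62880014, was 2.34 FPKM in wild-type cells against 2.70 FPKM in Hdac3-deleted cells, with a log2 fold change of 0.21 and an interval from -0.36 to 0.78 (q = 0.709). The summed TET level was 18.7 FPKM in wild-type cells against 22.2 FPKM in Hdac3-deleted cells. Tet3 held 59.7% and 62.9% of it, Tet2 27.8% and 24.9%, and Tet1 12.5% and 12.1%, so Tet3 was the leading TET transcript of these cells in both genotypes.

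The MBD readers recognise methylated DNA through a shared methyl-CpG binding domain. Mbd2, which joins the NuRD deacetylase complex to methylated DNA, on chromosome 18 from 70568292 to 70626131, was 98.7 FPKM in wild-type cells against 102 FPKM in Hdac3-deleted cells. Its log2 fold change was 0.05, with an interval from -0.52 to 0.61 (q = 0.962). Mbd1, on chromosome 18 from 74268288 to 74282684, was 26.0 FPKM in wild-type cells against 31.4 FPKM in Hdac3-deleted cells, with a log2 fold change of 0.27 and an interval from -0.26 to 0.81 (q = 0.534). Mbd2 was 3.80 times Mbd1 in wild-type and 3.25 times in Hdac3-deleted cells.

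The intervals of all 9 genes included 0 and lay inside a 2-fold difference in either direction, between -0.995 and 0.94 on the log2 scale. The implied standard errors were alike, from 0.27 to 0.33, although the levels differed 73.7-fold between the wild-type values of Uhrf1 and Tet1. In the whole table the smallest log2 fold change that the authors' test called had a size of 0.56, or 1.47-fold, and the largest among the 9 was 0.37. No tested gene with a difference of the size seen for Uhrf1, Tet3 or Dnmt3b was called in this design, and the missing calls do not show equal levels. The middle 50% of all tested genes had log2 fold changes from -0.19 to 0.24, and 4 of the 9 genes lay in that range, namely Dnmt3a, Mbd2, Tet2 and Tet1.

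**Figure D2:**
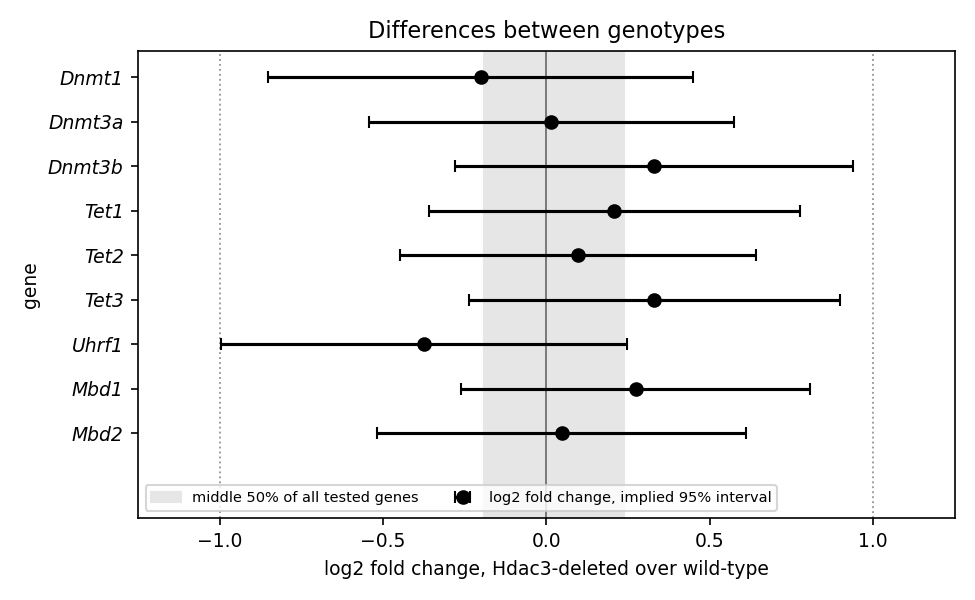
Log2 fold change of each gene, Hdac3-deleted over wild-type, with the 95% interval implied by the authors' test statistic (bars), the middle 50% of all tested genes (grey band) and a 2-fold difference in either direction (dotted lines). Every interval includes 0, and the lowest bound, that of Uhrf1 at -0.995, comes closest to a 2-fold difference.

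Partners of these genes were read from 6 lists holding 81 genes, of which 76 were tested and 6 were called, or 7.89%, near the 6.95% of all tested entries. Of 18 genes that act in S phase, when maintenance methylation takes place, 4 were called lower and 0 higher. All 18 had values below wild-type, with a median log2 fold change of -0.41 (0.03 for all tested genes, of which 4.14% were called lower). The clamp loader subunit Rfc3 was 63.9 FPKM in wild-type cells against 38.8 FPKM in Hdac3-deleted cells (q = 0.00855), and the ribonucleotide reductase subunit Rrm2 was 275 and 172 FPKM (q = 0.0312). The helicase subunit Mcm5 was 111 and 72.4 FPKM (q = 0.0444), and the polymerase subunit Pola1 was 29.97 and 20.0 FPKM (q = 0.0449). At a q-value under 0.01 only Rfc3 of these was called, and by the normal approximation 0. Uhrf1 lay in the middle of this list by value, with 9 of the 18 below it, and Dnmt1 near its upper end, with 14 below it. The share of cells in S phase was not measured, and its part in the values of Uhrf1 and Dnmt1 was not tested.

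Of 10 tested genes listed as methyltransferase cofactors, none passed the test, and the median log2 fold change was -0.16. The list is broad and also holds the histone methyltransferases Setdb1, Ehmt1 and Ehmt2 and the tRNA methyltransferase Trdmt1. Pcna, the replication clamp that UHRF1 and DNMT1 meet at the fork, was 726 FPKM in wild-type cells against 549 FPKM in Hdac3-deleted cells (q = 0.36). Usp7, a deubiquitinase that stabilises DNMT1 and UHRF1, was 67.8 and 97.9 FPKM (q = 0.115), the highest fold in the list at 0.53 on the log2 scale. Hells, a remodeller needed for DNA methylation and named here after its values were seen, was 78.6 and 58.9 FPKM (q = 0.23). Dnmt3l, a catalytically inactive partner of the de novo enzymes, and Dppa3 were not tested, with Dnmt3l under 0.05 FPKM and Dppa3 listed at 0 in both genotypes.

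Of 12 genes in the supply of S-adenosylmethionine, the methyl donor of all methyltransferases, 2 were called lower and 0 higher. Over all tested entries the same 4.14% were called lower. By value 9 of the 12 lay below wild-type and 3 above, with a median log2 fold change of -0.21. Ahcy, which clears the S-adenosylhomocysteine left after each methylation, fell from 75.7 to 47.4 FPKM, 1.60-fold (q = 0.0122 in the authors' deposited table). Mthfd1, an enzyme of the folate cycle, fell from 24.5 to 16.2 FPKM, 1.52-fold (q = 0.0336). Neither was called at a q-value under 0.01 or by the normal approximation. Folate enzymes also serve nucleotide synthesis. In the same samples 4 of the 18 S-phase genes were called lower, and the part of one in the other was not tested. Mat2a, which makes S-adenosylmethionine and was named after its values were seen, was 119 and 127 FPKM (q = 0.912).

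None of 16 tested TET cofactors and base excision repair genes was called, and their median log2 fold change was 0.14. Parp1 was 112 FPKM in wild-type cells against 133 FPKM in Hdac3-deleted cells (q = 0.636). Ogt, a glycosyltransferase that binds TET2 and TET3, was 88.9 and 136 FPKM, a log2 fold change of 0.62 at q = 0.074, the smallest q of that list. Of 9 relatives of the readers, the other MBD family genes, methyl-binding zinc finger genes and Uhrf2, none was called, 7 had values above wild-type, and the median was 0.28. The MBD family is grouped by its domain, and not all of its proteins bind methylated DNA selectively. Mbd3, a NuRD subunit that does not, was 64.5 and 51.2 FPKM (q = 0.39), and Uhrf2, the relative of Uhrf1, was 30.1 and 38.8 FPKM (q = 0.321), so the values of Uhrf1 and Uhrf2 lay on opposite sides of wild-type, with neither difference past the test. None of 11 NuRD genes was called, with a median of -0.01. The histone-binding subunit Rbbp7 was 157 and 128 FPKM (q = 0.673), and Mta2 was 127 and 140 FPKM (q = 0.854).

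**Figure D3:**
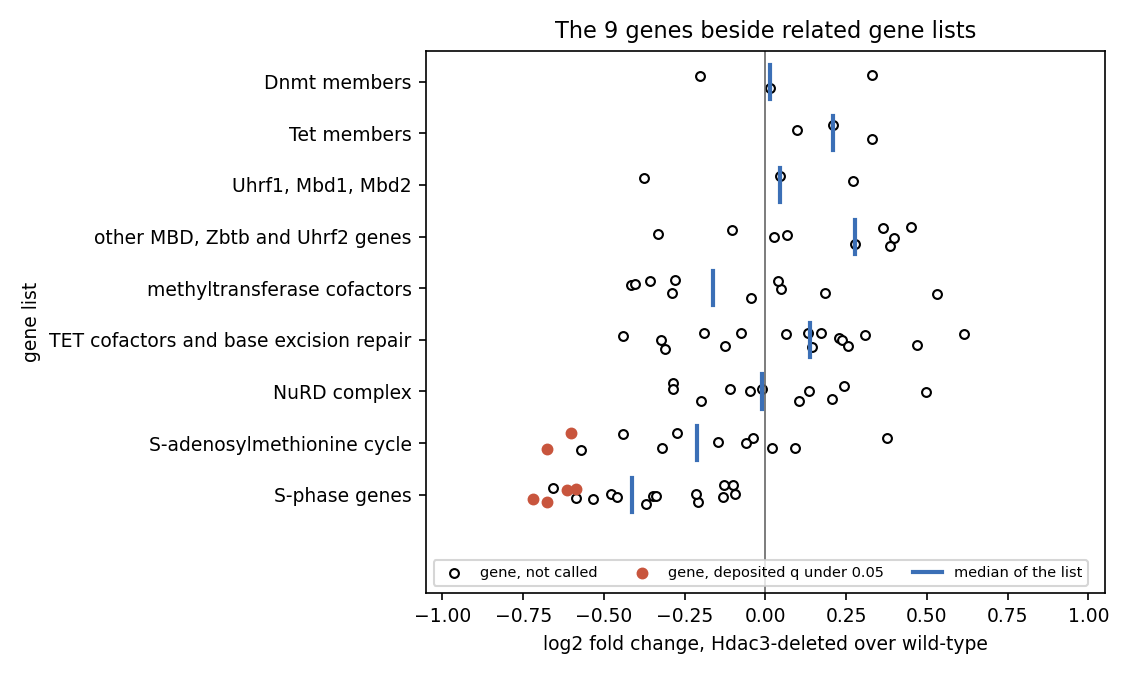
Log2 fold change of each tested gene, Hdac3-deleted over wild-type, for the 9 genes in 3 groups and for 6 related lists; filled points passed the deposited q-value under 0.05, and the vertical bars are list medians. The 6 filled points are 4 S-phase genes and 2 genes of the S-adenosylmethionine cycle, all below 0, and none is among the 9 genes.

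Promoter windows of 300 bases, from 250 before to 50 after a transcript start, were taken from RefSeq (GRCm38.p6) for 7 of the 9 genes, 12 windows in all. Mbd1 and Mbd2 had no window used here. Windows were searched on both strands for 4 words that E2F factors of the cell cycle are known to bind, TTTCCCGC, TTTGGCGC, TTTCGCGC and TTTGCCGC. A word stood in 2 of the 12 windows, 1 of Dnmt1 and 1 of Uhrf1, beside 2.26% of all 32851 windows. By gene this was 2 of 7, beside 2.60% of all genes with a window and 7 of the 15 S-phase genes with one. All 4 words contain CpG, and the median CpG number of these windows is above that of all windows, so the shares are not like for like. The stretches before the start are shown because they are what these windows have in common, with the word in capitals and each read 5′ to 3′ on the gene's strand:
Dnmt1, minus strand, chr9:20952824-20952853: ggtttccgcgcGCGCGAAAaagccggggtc
Uhrf1, plus strand, chr17:56304117-56304146: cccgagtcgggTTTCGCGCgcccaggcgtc
In both the word is TTTCGCGC, read on the opposite strand in Dnmt1, starting 219 bases before the start in Dnmt1 and 185 bases before it in Uhrf1. Dnmt1 also held TTTGGCGC just after the same start, from base 34 of the transcript, and no words overlapped. Each gene has further RefSeq starts whose windows held none of the words, and which start was used in these cells was not measured. A word is a match of letters, not a measured binding site, and windows without one say nothing of the factor. The number of CpG, the target of the enzymes themselves, varied among the 12 windows from 2 in the most upstream one of Dnmt1 to 57 in that of Tet2, with a median of 26 against 7 over all windows. The Dnmt1 and Uhrf1 windows shown held 33 each.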

How the data were processed

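RNA was measured in 4 libraries, 2 per genotype, grouped by the labels' titles. Per the submitters' processing notes, reads were handled with Trimmomatic 0.32, TopHat2 2.0.11 and Cuffdiff 2.1.1 on mm10; the sources used here do not give options, annotation, library scaling or strand. The deposited table holds 1 FPKM value per gene and genotype, combined by the authors, with Cuffdiff's test statistic (a score), p-value and q-value, per the file headers. The deposited q-value equals a Benjamini-Hochberg adjustment over the 12683 tested entries. Fold changes were computed here from FPKM without a pseudocount. In entries too low to test, the commonest ratio between genotypes was 1.14 (63 entries), which may be the ratio of what 1 fragment was worth.

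Positions were shifted to count from 1. The 9 genes and the lists were chosen with earlier results of these data known. Named besides the 9 genes were up to 4 called genes of each related list, or else the 2 with the highest mean level, and the 2 highest of each marker list; others are marked as chosen after their values were seen. No gene was named for a like pattern, since 2 values give none. Other settings tried were the q threshold, a least fold of 1.5, a minimum of 1 FPKM, shared loci, the p-value, pseudocounts and scaling. The calculations were tested on simulated data drawn as normal values with the implied standard errors. That checks the arithmetic and cannot test whether those errors or the normal approximation hold. Python 3.11.15, numpy 2.4.6, pandas 2.3.3, scipy 1.17.1 and matplotlib 3.10.9 were used.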

Additional observations from a re-analysis of the deposited data

How the results depend on the processing

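The count of called genes among the 9 was 0 under all 6 alternatives: a q under 0.01 or 0.1, at least 1 FPKM, unshared loci, the normal approximation and at least 1.5-fold. Over all genes, 881 were called, 534 at a q under 0.01 and 471 by the normal approximation. S-phase genes went from 4 called to 1 and 0 under these, and S-adenosylmethionine genes from 2 to 0 and 0. At a q under 0.1, 1 TET cofactor was called, Ogt. The pseudocounts, equal FPKM sums and centring on the median gene moved no log2 fold change of the 9 by more than 0.06, and 35 of 36 such values kept their direction; centring on the median gene took Dnmt3a from 0.014 to -0.0102. Centring on the S-phase genes, which adds 0.41 to each value by construction, took Uhrf1 to 0.0394 and Dnmt1 to 0.21. No paired analysis was possible because the deposited table holds 1 combined value per genotype, and for the same reason no library could be left out. Depth is unknown, and the smallest difference called in the table was 1.47-fold.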
